A study of Mus musculus with 3 samples.

Results

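Cell cycle exit genes and D cyclins were followed through mouse back skin: the CDK inhibitor genes Cdkn1a, Cdkn1b and Cdkn2c, the anti-proliferative gene Btg1 and the D cyclin genes Ccnd1, Ccnd2 and Ccnd3. These 7 genes were listed by name, all 7 were found, and they are 7 of the 19165 genes measured. Back skin of C57BL/6 male mice was dissociated at embryonic day E13.5, at E16.5 and at birth (P0), with no treatment and no control group, and cells were captured on the droplet 3′ platform of 10x Genomics, where a random tag, the unique molecular identifier (UMI), lets copies of a transcript made by amplification count once. Animals of a stage were pooled into 1 library, so stage and library cannot be told apart and no difference has a replicate check. Embryonic skin was digested with trypsin and P0 skin with collagenase IV. The libraries held 5962, 5208 and 5065 cells with 53334740, 66239195 and 46599806 UMIs.

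Entry into the cell cycle is decided in G1. D cyclins bind CDK4 and CDK6 and start the phosphorylation of the retinoblastoma protein, which frees E2F factors to switch on the genes of S phase. The proteins p21 (Cdkn1a) and p27 (Cdkn1b) bind cyclin-CDK complexes and mainly block CDK2, p18 (Cdkn2c) is an INK4 protein that blocks CDK4 and CDK6, and BTG1 belongs to a family of transcriptional cofactors that slow proliferation. In the skin, fibroblasts that gather under a hair placode form the dermal condensate (DC), which becomes the dermal papilla (DP), and DC cells are known for leaving the cell cycle early. Keratinocytes leave the cycle as they move from the basal layer to the suprabasal layers.

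Levels are UMIs summed over all cells of a group and scaled to 1000000 UMIs of that group (CPM), with a 95% Poisson interval that covers counting error only. Since the method reads transcript ends, levels are not per length and are compared between cells for 1 gene at a time. A difference is the log2 of the ratio of 2 CPM values after adding 10 to each. It is called past 2-fold at a log2 difference of 1 or more in either direction among genes with at least 50 UMIs in the groups compared, and no p-value is given, since cells of a library are not replicates. Cells of each library were clustered alone and the clusters named from marker lists, hence names such as dermal-like. Cells were also split into those with 0 UMIs for both Top2a and Mki67, genes transcribed from S phase to mitosis, and the rest.

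The named cells met their markers unevenly. All 12 condensate markers were past 2-fold in the 519 DC-like cells at E16.5 over the other cells of that library, with a summed level of 2338 against 313 CPM, and 10 of 12 were in the 152 DP-like cells at P0. The same 12 markers gave these cells their names, with at least 6 needed, so these counts are no independent check. Over other dermal-like cells at P0, Sox2 (0.85) and Foxd1 (0.23) were short of 2-fold in DP-like cells. Of the other dermal-like cells, all 8 dermal markers were past 2-fold at E16.5 and at P0 but only 3 of 8 at E13.5. Shh and Lhx2 were at 0 in the 67 matrix or placode-like cells at E13.5, and Krt72 was at 0 in the 95 inner root sheath (IRS)-like cells at P0. Hba-x, a hemoglobin gene, was among the leading genes of 1 of the 3 DC-like sub-clusters, and the periderm-like cells at E16.5 had the suprabasal keratins Krt1 and Krt10 among theirs. Rules added after the clusters had been seen left 836 of 2185 dermal cells (38.3%) and 252 of 515 epithelial cells (48.9%) out of their class at E13.5, against 0 of 3292 and 77 of 951 at E16.5 and 60 of 2685 and 184 of 1601 at P0. In all, 1229 cells (20.6%), 77 (1.48%) and 244 (4.82%) stayed unnamed. Between 32 and 44 cell barcodes were shared by each pair of libraries.

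In GRCm38, the mouse assembly behind the files, Cdkn1a lies on chromosome 17 (29090976 to 29100727, plus strand), Cdkn1b on chromosome 6 (134920401 to 134925513, plus) and Cdkn2c on chromosome 4 (109660876 to 109667189, minus). Btg1 lies on chromosome 10 (96617006 to 96622809, plus). Ccnd1 lies on chromosome 7 (144929931 to 144939925, minus), Ccnd2 on chromosome 6 (127125162 to 127152193, minus) and Ccnd3 on chromosome 17 (47505051 to 47599691, plus). All 7 are protein-coding, and the annotated genes that overlap Cdkn1a, Ccnd1, Ccnd2 and Ccnd3 are on the opposite strand. RefSeq promoters (GRCm38.p6, 250 bases before a start to 50 after it) matched 5 of the 7 genes with 8 starts. The promoters of the 3 genes with the widest differences between dermal groups are shown. Cdkn1a and Cdkn2c each have 2 starts in RefSeq: the downstream one is printed for Cdkn1a and the upstream one for Cdkn2c.

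The stretches are chr17:29093519-29093818 on the plus strand for Cdkn1a, chr10:96616751-96617050 on the plus strand for Btg1 and chr4:109666707-109667006 on the minus strand for Cdkn2c. Capitals mark matches, on either strand, to the GC box GGGCGG, the CCAAT box CCAAT or the TATA box TATAAA.
Cdkn1a: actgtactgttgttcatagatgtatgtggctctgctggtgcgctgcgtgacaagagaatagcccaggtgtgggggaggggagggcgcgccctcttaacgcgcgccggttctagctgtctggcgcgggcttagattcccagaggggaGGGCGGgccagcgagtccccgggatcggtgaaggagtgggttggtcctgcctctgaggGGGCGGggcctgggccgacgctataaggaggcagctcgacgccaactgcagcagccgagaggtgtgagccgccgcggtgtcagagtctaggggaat
Btg1: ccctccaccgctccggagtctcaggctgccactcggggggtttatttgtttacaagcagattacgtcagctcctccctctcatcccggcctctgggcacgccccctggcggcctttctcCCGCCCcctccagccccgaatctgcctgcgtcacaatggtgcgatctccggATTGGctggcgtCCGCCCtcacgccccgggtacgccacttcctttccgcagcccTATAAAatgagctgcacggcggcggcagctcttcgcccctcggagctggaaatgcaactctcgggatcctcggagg
Cdkn2c: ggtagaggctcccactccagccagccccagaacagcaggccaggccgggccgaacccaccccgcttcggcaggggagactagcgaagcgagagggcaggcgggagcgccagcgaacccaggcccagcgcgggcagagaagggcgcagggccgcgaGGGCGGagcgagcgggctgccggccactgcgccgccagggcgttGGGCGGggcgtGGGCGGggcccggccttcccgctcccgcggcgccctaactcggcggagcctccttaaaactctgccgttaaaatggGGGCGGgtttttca

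The downstream Cdkn1a promoter held 2 GC boxes, the Btg1 promoter 1 TATA box, 2 GC boxes and 1 CCAAT box, and the upstream Cdkn2c promoter 4 GC boxes. The starts not printed held 0 matches at Cdkn1a and 0 GC boxes and 1 CCAAT box at Cdkn2c. Of all 32851 promoters in the table, 35.7% held a GC box, 37.4% a CCAAT box and 13.6% a TATA box. A canonical E2F site, searched on both strands as TTTCCCGC, TTTCGCGC, TTTGCCGC or TTTGGCGC, was matched in none of the 8 promoters of members and in 2.26% of all promoters. A match is a description of these letters and not a site of binding.

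**Figure D1:**
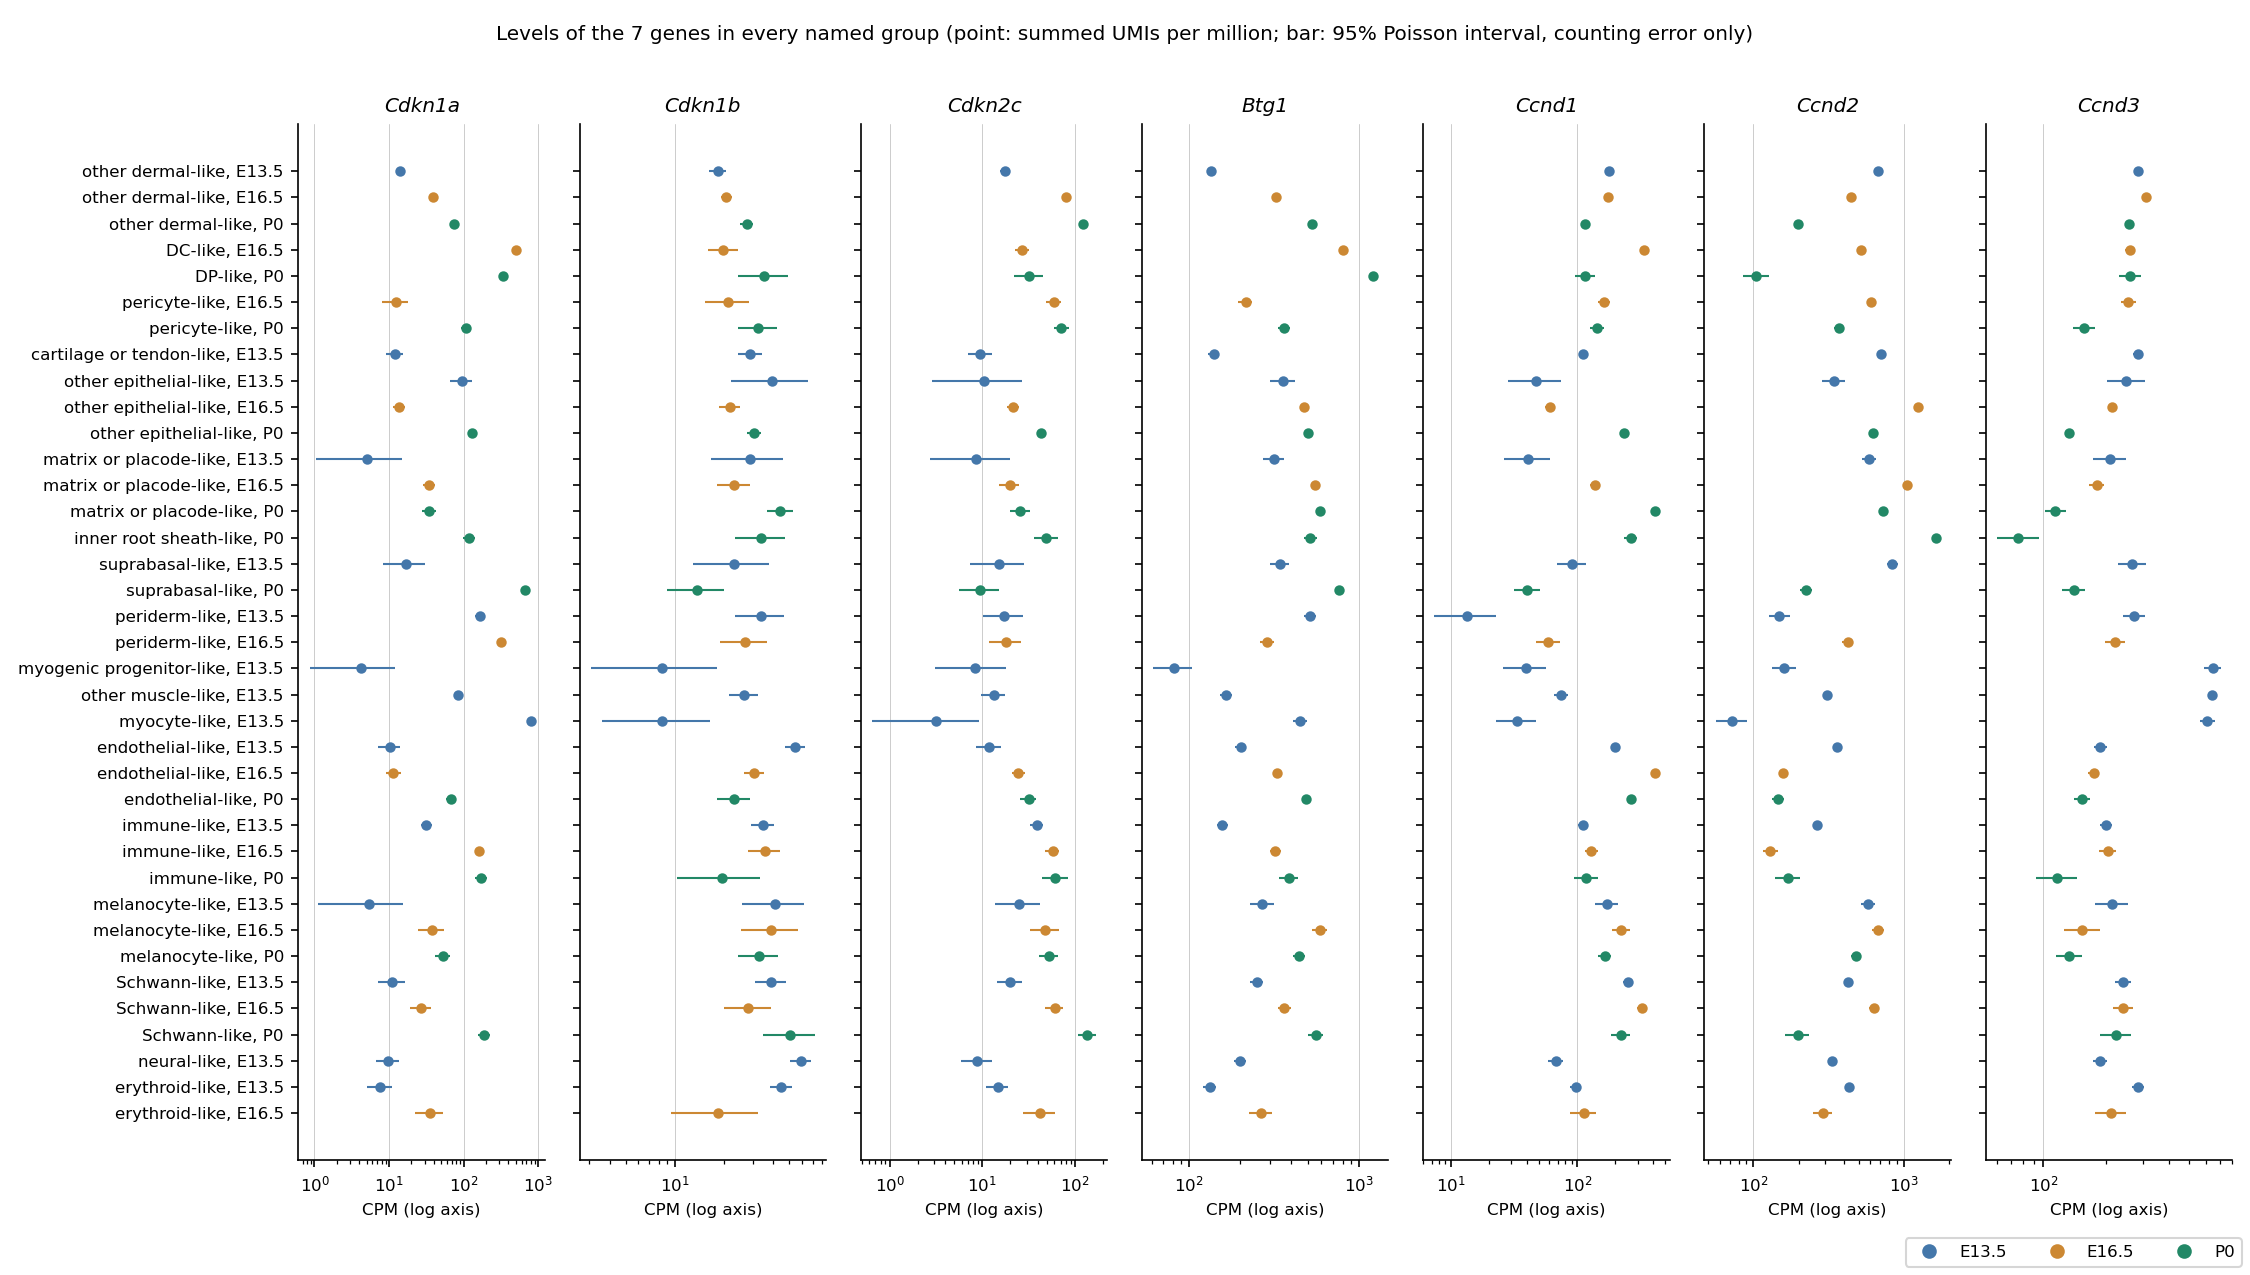
Level of each of the 7 genes (CPM, log axis) in every named group of cells, with 1 point per group and library coloured by stage and bars for the 95% Poisson interval. Cdkn1a spans from 4.18 CPM in myogenic progenitor-like cells to 815 CPM in myocyte-like cells at E13.5, while the 37 points of Cdkn1b lie between 8.35 and 59.1 CPM.

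Cdkn1a was the inhibitor with the widest span. Ordered by level over the 37 named groups, it was highest in myocyte-like cells at E13.5 (815 CPM, interval 759 to 875), then in suprabasal-like cells at P0 (658, 622 to 696), in the E16.5 DC-like cells (500, 480 to 520), in DP-like cells at P0 (340, 305 to 379) and in periderm-like cells at E16.5 (317, 288 to 347). The intervals of the DP-like and periderm-like cells overlapped, and those of the first 4 groups did not overlap. Myocytes, suprabasal keratinocytes and the DC are textbook post-mitotic or slowly cycling cells. Each stood far above its own neighbours: myogenic progenitor-like cells at E13.5 held 4.18 CPM (0.861 to 12.2), the remaining dermal-like cells held 39.5 CPM (37.3 to 41.7) at E16.5 and 73.5 CPM (69.4 to 77.7) at P0, and other epithelial-like cells held 13.6 CPM (11.3 to 16.3) at E16.5 and 129 CPM (123 to 135) at P0. The suprabasal-like cells at E13.5 were an exception at 16.8 CPM (8.41 to 30.1) from 11 UMIs, and only 20.0% of them were at 0 for Top2a and Mki67 against 85.7% of those at P0. A large share of cells at 0 did not always go with a high level. Neural-like and cartilage or tendon-like cells at E13.5 held only 9.70 and 11.9 CPM, with 55.2% and 58.5% of cells at 0. Of the periderm-like cells at E16.5, 39.1% were at 0. Over the whole order, 30 of 36 neighbouring pairs had overlapping intervals. Genes of the dissociation response, early genes that enzyme digestion can switch on, summed to 8432 CPM in suprabasal-like cells at P0. In other epithelial-like cells at P0 they summed to 3957 CPM. In myocyte-like cells they were lower than in myogenic progenitor-like cells, at 169 against 302 CPM. Their part in these Cdkn1a levels was not tested.

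The share of cells with a Cdkn1a UMI set the same groups apart. With every cell thinned to 3500 UMIs, it was 51.3% (46.9 to 55.6) in DC-like cells beside 10.1% (9.0005 to 11.3) in other dermal-like ones at E16.5, and 60.5% (52.3 to 68.4) in DP-like cells and 17.6% (16.1 to 19.1) in other dermal-like cells at P0. Without thinning these were 70.1%, 21.8%, 75.7% and 25.6%, at median depths of 8663, 10764, 5641 and 6041 UMIs per cell. No class is known to lack the gene, and the lowest shares at these stages were 3.42% in endothelial-like cells at E16.5 and 10.965% in matrix or placode-like cells at P0. In suprabasal-like cells at P0 the share was 82.7% (75.2 to 88.7), or 99.2% unthinned at a median of 11904 UMIs.

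Cdkn1b had a lower highest level than any other member. That level was 59.1 CPM (51.0 to 68.2) in neural-like cells and its lowest 8.35 CPM in myocyte-like cells, both at E13.5, and the intervals of all 36 neighbouring pairs overlapped. At E16.5 it stood at 19.9 CPM in DC-like cells beside 20.7 CPM in the other dermal-like ones. Although p27 is a classical inhibitor of cycle entry, it is known to be set largely by protein turnover, which these counts do not measure.

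Cdkn2c was highest in Schwann-like cells at P0 (136 CPM, 108 to 169), followed by other dermal-like cells at P0 (121 CPM, 116 to 127) and at E16.5 (79.9 CPM, 76.8 to 83.0). Its lowest level was 3.13 CPM (0.646 to 9.15) in myocyte-like cells at E13.5, where Cdkn1a was highest. DC-like cells held 26.9 CPM (22.5 to 31.9), DP-like cells 32.0 CPM (21.7 to 45.4) and suprabasal-like cells at P0 9.49 CPM (5.62 to 14.996). Schwann-like cells at P0 also held 188 CPM (156 to 226) of Cdkn1a, and 35 of 36 neighbouring pairs overlapped for Cdkn2c.

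Btg1 was highest in DP-like cells at P0 (1210 CPM, 1142 to 1281), then in the E16.5 DC-like cells (801 CPM, 776 to 827) and suprabasal-like cells at P0 (763 CPM, 724 to 804). It was lowest in myogenic progenitor-like cells (80.8 CPM, 61.3 to 104), and 32 of 36 neighbouring pairs overlapped. In other dermal-like cells it was 134 CPM (128 to 140) at E13.5, 324 CPM (318 to 331) at E16.5 and 527 CPM (516 to 538) at P0. These 3 intervals did not overlap.

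The 3 D cyclins were highest in different cells. Ccnd1 was highest in matrix or placode-like cells at P0 (414 CPM, 390 to 440) and endothelial-like cells at E16.5 (410 CPM, 395 to 426), whose intervals overlapped, and then in DC-like cells (335 CPM, 319 to 352). It was lowest in periderm-like cells at E13.5 (13.45 CPM, 7.35 to 22.6). Ccnd2 was highest in IRS-like cells at P0 (1649 CPM, 1570 to 1731) and other epithelial-like cells at E16.5 (1239 CPM, 1216 to 1262), and lowest in myocyte-like cells (72.0 CPM, 56.1 to 91.2) and DP-like cells (104 CPM, 84.8 to 127). Ccnd3 was highest in the 3 muscle-like groups at E13.5, at 647, 642 and 612 CPM with overlapping intervals, and lowest in IRS-like cells (75.9 CPM, 59.8 to 95.01). Neighbouring pairs overlapped in 33, 31 and 33 of 36 cases for Ccnd1, Ccnd2 and Ccnd3.

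As a share of the UMIs of the 3 genes together, Ccnd2 made up 59.3% (58.5 to 60.0) of D cyclin UMIs in other dermal-like cells at E13.5, 47.7% (47.1 to 48.3) at E16.5 and 34.8% (33.8 to 35.8) at P0. Ccnd3 made up 24.98%, 33.4% and 45.0%. Its level in these cells was 285, 310 and 256 CPM, lowest at P0, while that of Ccnd2 was 676, 442 and 198 CPM. The larger Ccnd3 share at P0 thus went with less Ccnd2 and not with more Ccnd3. The DP-like cells held 54.3% (49.6 to 58.9) Ccnd3 and 21.7% (18.0 to 25.7) Ccnd2. Their Ccnd3 level was 261 CPM beside 256 CPM in other dermal-like cells at P0. DC-like cells held 30.0% (28.8 to 31.3) Ccnd1 against 18.9% (18.4 to 19.3) in other dermal-like cells of the E16.5 library. In other epithelial-like cells Ccnd2 made up 53.5%, 81.8% and 63.1% at the 3 stages, and in IRS-like cells 82.9% (81.2 to 84.5). In myocyte-like cells Ccnd3 made up 85.3% (82.4 to 87.9).

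**Figure D2:**
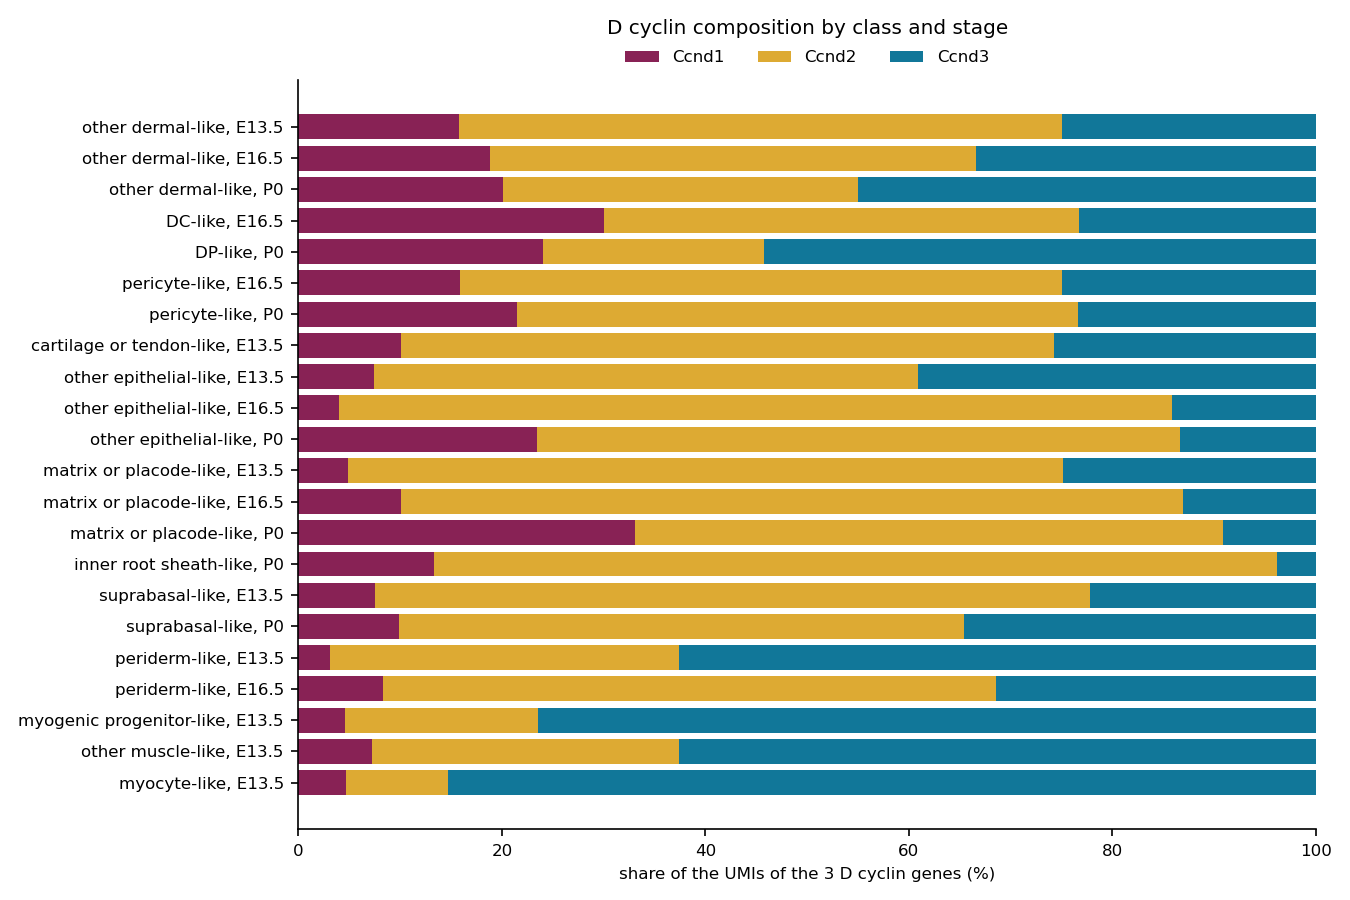
Share of the summed UMIs of Ccnd1, Ccnd2 and Ccnd3 (%, stacked to 100) held by each gene in the skin and muscle classes at each stage. In other dermal-like cells Ccnd2 takes 59.3% at E13.5 and 34.8% at P0, and Ccnd3 takes 85.3% in myocyte-like cells.

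DC-like cells were next compared with other dermal-like cells of the same E16.5 library, the comparison on which cycle exit in the condensate bears. Cdkn1a was 500 against 39.5 CPM, a log2 difference of 3.37 (3.28 to 3.45). Btg1 was 801 against 324 CPM (1.28, 1.23 to 1.33) and Cdkn2c 26.9 against 79.9 CPM (-1.28, -1.47 to -1.10). Ccnd1 was 335 against 175 CPM (0.90, 0.82 to 0.98), short of 2-fold, and Ccnd2 (0.23), Ccnd3 (-0.24) and Cdkn1b (-0.04) differed by less. So 2 of 7 members were higher and 1 lower past 2-fold, where 2.03% of 11984 genes tested were higher and 1.95% lower. In the classes taken from the marker UMIs of each cell instead of clusters, Btg1 fell short of 2-fold at 0.77 and Cdkn2c reversed to 0.28, while Cdkn1a was 2.53.

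DC-like cells were more often at 0 for Top2a and Mki67, at 79.4% (75.6 to 82.8) against 58.8% (56.9 to 60.6) after thinning and 64.9% against 41.3% before it, so the comparison was repeated among such cells alone. Cdkn1a was then 521 against 37.2 CPM (3.49, 3.36 to 3.62) and Btg1 861 against 351 CPM (1.27, 1.20 to 1.34). The Cdkn2c difference was -0.60 (-0.89 to -0.31), from 10.2 against 20.7 CPM, and was no longer past 2-fold. Here 2 of 7 members were higher and 0 lower, against 2.47% and 2.09% of 10466 genes. Cells not at 0 were 182 of the 519 DC-like and 1629 of the 2773 other dermal-like cells. Other dermal-like sub-clusters with 0.334%, 3.60% and 7.78% of cells at 0 held 229, 140 and 124 CPM of Cdkn2c. In the DC-like sub-clusters, cells not at 0 held 18.3, 11.05 and 118 CPM, the last in the sub-cluster with Hba-x. Clustering thus set many cycling cells apart, so the class names are not independent of the share at 0 or of G2/M gene levels. The part of cycling cells in the Cdkn2c difference was not tested.

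Within DC-like cells, Cdkn1a was 521 CPM (495 to 548) in the 337 cells at 0 and 467 CPM (437 to 499) in the 182 others. Other dermal-like cells held 37.2 CPM (33.7 to 40.9) at 0 and 40.7 CPM (38.0 to 43.5) in the rest. The classes therefore stood apart on either side of the split, by far more than cells at 0 differed from the rest within a class. The 3 DC-like sub-clusters differed widely: 771 CPM (733 to 811) in 212 cells, 380 CPM (353 to 409) in 205 cells and 188 CPM (162 to 217) in the 102 cells of the sub-cluster with Hba-x. In the first, cells at 0 held 759 CPM and the rest 791 CPM. In the second these were 375 and 396 CPM, and in the third 264 and 153 CPM. Ccnd1 ran in another order, with 217 CPM (197 to 239), 479 CPM (448 to 512) and 298 CPM (265 to 334), so the sub-cluster with the highest Cdkn1a level had the lowest Ccnd1 level of the 3. Cdkn2c was 12.7, 9.63 and 87.3 CPM.

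**Figure D3:**
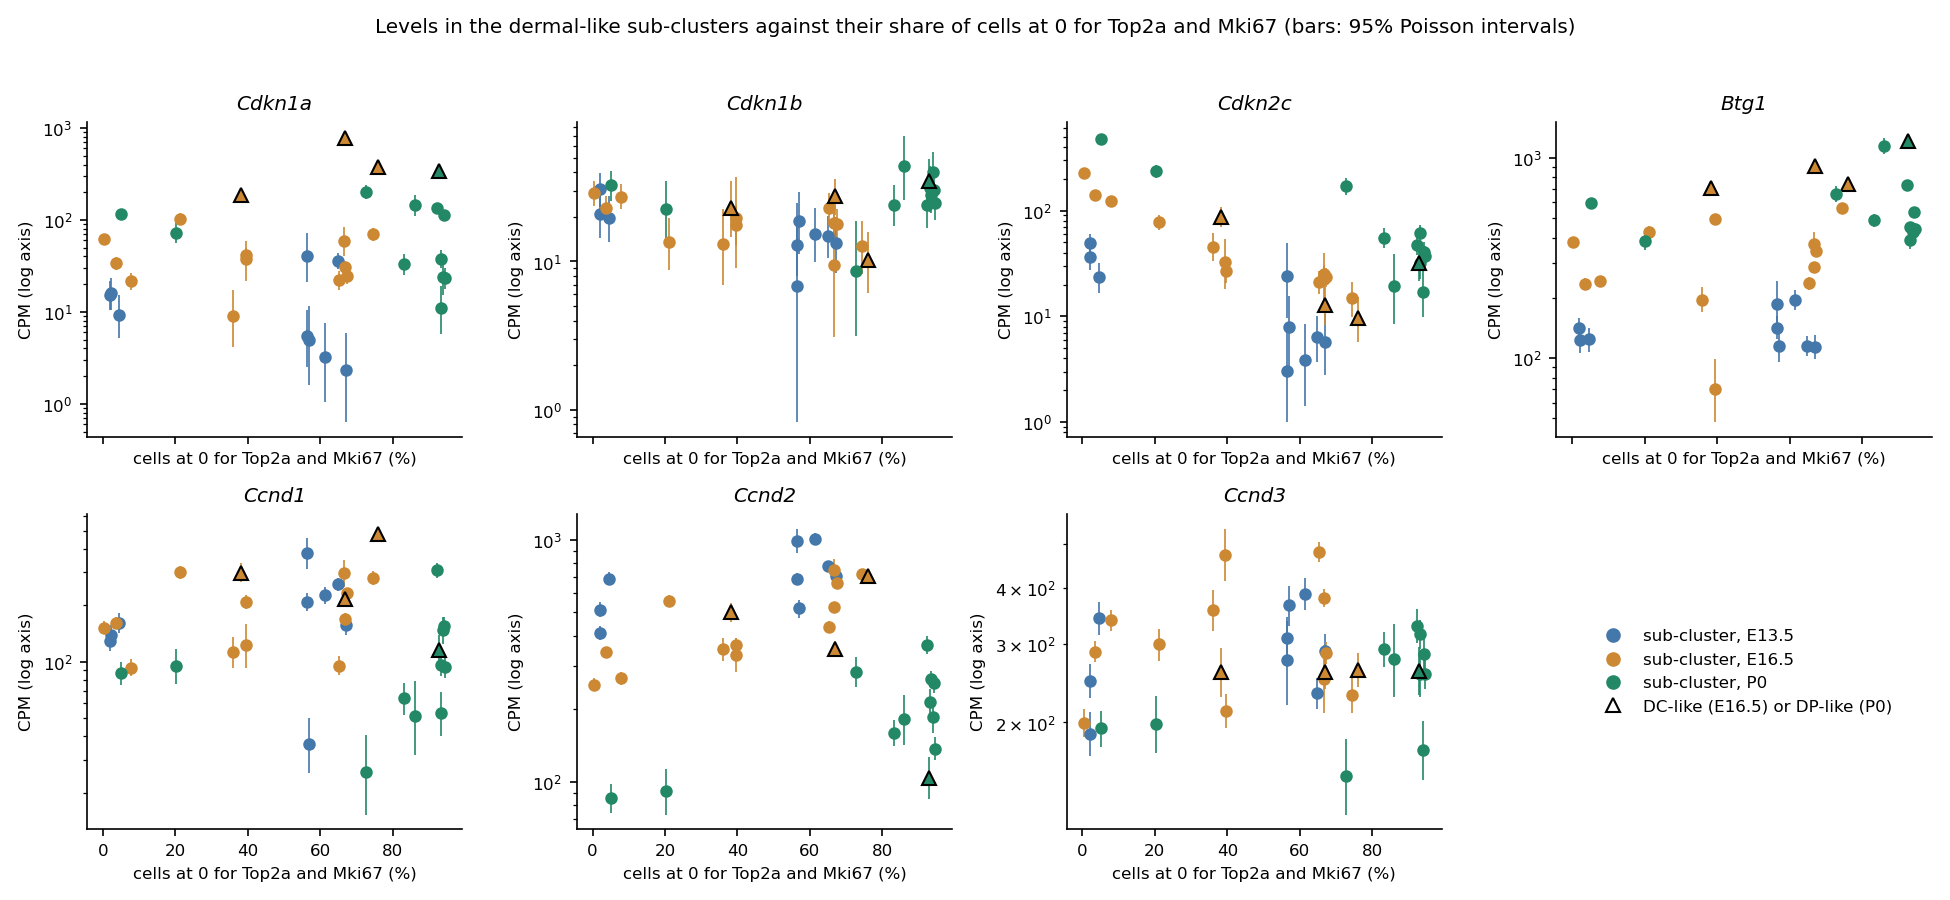
Level of each gene (CPM, log axis) in each dermal-like sub-cluster against the share of its cells at 0 for Top2a and Mki67 (%), coloured by stage, with triangles for the DC-like and DP-like sub-clusters and bars for 95% Poisson intervals. The DC-like triangles lie at 188 to 771 CPM of Cdkn1a above all other sub-clusters at E16.5 (at most 103 CPM), and Cdkn2c is highest where few cells are at 0.

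At P0, DP-like cells against other dermal-like cells gave 340 against 73.5 CPM of Cdkn1a (2.07, 1.90 to 2.24), 1210 against 527 CPM of Btg1 (1.18, 1.10 to 1.27) and 32.0 against 121 CPM of Cdkn2c (-1.64, -2.04 to -1.25). Ccnd2 was 104 against 198 CPM (-0.87, -1.13 to -0.60), while Ccnd1 (0.01, -0.24 to 0.26), Ccnd3 (0.03, -0.15 to 0.20) and Cdkn1b (0.26, -0.13 to 0.65) had intervals across 0. In all, 2 of 7 members were higher and 1 lower past 2-fold, against 4.03% and 3.19% of 10640 genes tested. Cdkn2c reversed to 2.34 without the added naming rules, where Cdkn1a was 0.83, and to 0.59 with classes from the marker UMIs of each cell, where Btg1 was 0.40.

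Among P0 cells at 0, a state held by 95.4% of the DP-like and 82.5% of the other dermal-like cells after thinning and by 92.8% and 77.6% before it, Cdkn1a was 348 against 62.8 CPM (2.298, 2.12 to 2.48) and Btg1 1217 against 522 CPM (1.21, 1.11 to 1.30). Ccnd2 was 95.5 against 226 CPM (-1.16, -1.45 to -0.88), past 2-fold here but in only 6 of 13 alternatives, with a reversal to 0.29 for classes from the marker UMIs of each cell. The Cdkn2c difference was -0.65 (-1.08 to -0.21). The counts were 2 higher and 1 lower of 7, against 4.18% and 2.87% of 9952 genes. The DC-like and DP-like cells come from libraries of different digestion. Their levels were 500 and 340 CPM of Cdkn1a, 521 and 104 CPM of Ccnd2, and 801 and 1210 CPM of Btg1. These levels were placed in order above with counting error only. Stage, digestion and library cannot be told apart in that order.

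**Figure D4:**
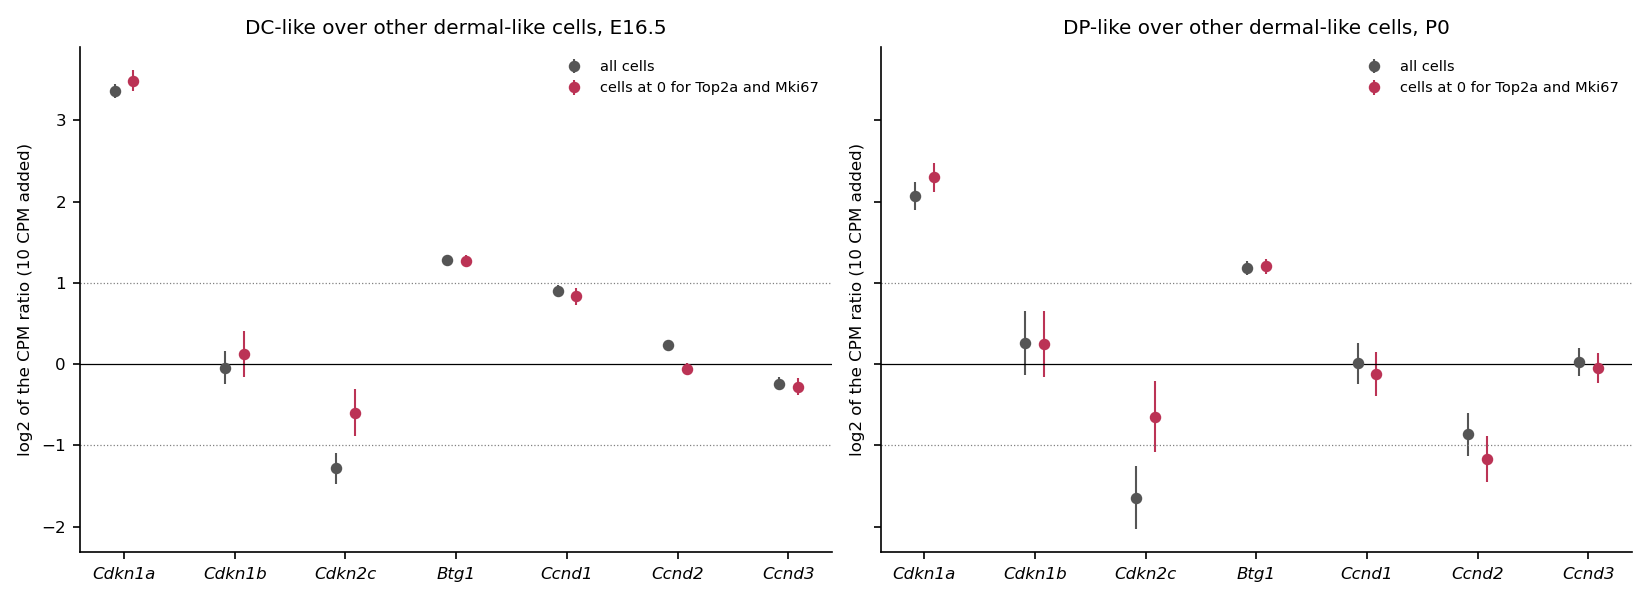
log2 of the CPM ratio (10 CPM added) of DC-like over other dermal-like cells at E16.5 and of DP-like over other dermal-like cells at P0, for all cells and for cells at 0 for Top2a and Mki67, with 95% counting intervals and dotted lines at 2-fold. Cdkn1a and Btg1 lie above the upper line in both panels and both cell sets, and Cdkn2c moves from -1.28 to -0.60 and from -1.64 to -0.65 when cycling cells are left out.

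The lists of other G1 pathway genes were read in the same comparisons. In DC-like cells 0 of 6 G1 kinases and pocket proteins, 0 of 8 E2F genes and 0 of 4 other BTG and TOB genes were past 2-fold. At P0, Rb1, which encodes the retinoblastoma protein itself, was higher in DP-like cells (40.2 against 5.86 CPM, 1.66), the D cyclin partner Cdk6 lower (23.7 against 59.0 CPM, -1.03) and the activator E2f1 lower (7.22 against 33.7 CPM, -1.34). Of the 8 genes listed for quiescence and growth arrest, Gadd45g was higher in DC-like cells (314 against 101 CPM, 1.55), and in DP-like cells Foxo3 was higher (1.10) and Gas1 (-1.11) and Gas6 (-1.32) lower. Among the p53 targets other than Cdkn1a, 0 of 11 tested were past 2-fold in DC-like cells (median 0.15, all genes 0.04) and 0 of 10 in DP-like cells (median 0.33, all genes 0.11). Of 52 G2/M genes, 29 were lower in DC-like cells (median -1.09) and 32 in DP-like cells (median -1.22). Among cells at 0 these were 2 of 44 tested and 0 of 33. S genes were lower past 2-fold in 0 of 42 in DC-like cells and 6 of 40 in DP-like cells. Genes of the dissociation response, the early genes that enzyme digestion can switch on, had a summed level of 1537 CPM in DC-like against 1838 CPM in other dermal-like cells and 6260 against 4249 CPM for DP-like cells. Their part in these differences was not tested.

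Cells at 0 were then set against the rest in each lineage, with the whole class in each stage. Cdkn2c was lower in cells at 0 in all 6 comparisons, 5 of them past 2-fold. In dermal-like cells it was 3.04 against 26.2 CPM at E13.5 (-1.47, -1.69 to -1.26), 18.5 against 107 CPM at E16.5 (-2.04, -2.16 to -1.91) and 46.4 against 319 CPM at P0 (-2.55, -2.67 to -2.43). In epithelial-like cells it was 6.47 against 16.1 CPM (-0.67, -1.30 to -0.03), 5.27 against 24.3 CPM (-1.17, -1.46 to -0.88) and 9.33 against 53.7 CPM (-1.72, -1.92 to -1.52). Without suprabasal-, periderm- and IRS-like cells the E13.5 epithelial-like value was -0.03 (-1.11 to 1.04), at 8.93 against 9.38 CPM in 35 and 86 cells. From the list of other CDK inhibitors, Cdkn3 was lower past 2-fold in dermal-like cells at all 3 stages and the INK4 gene Cdkn2d at E16.5 and P0.

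Cdkn1a did not follow one direction. In dermal-like cells it was 16.1 against 13.2 CPM at E13.5 (0.18, -0.07 to 0.42), 137 against 76.4 CPM at E16.5 (0.76, 0.68 to 0.85) and 82.3 against 106 CPM at P0 (-0.32, -0.47 to -0.18). Without DC-like and DP-like cells the E16.5 value was -0.10 (-0.24 to 0.03) and the P0 value -0.63 (-0.78 to -0.48). In epithelial-like cells it was 134 against 68.9 CPM at E13.5 (0.87, 0.52 to 1.23), 56.8 against 50.04 CPM at E16.5 (0.15, -0.07 to 0.37) and 254 against 122 CPM at P0 (1.003, 0.91 to 1.10). The P0 value was 0.20 (0.07 to 0.33), at 125 against 107 CPM, without suprabasal-, periderm- and IRS-like cells. Without them the E13.5 value changed sign to -1.03 (-2.02 to -0.04), from 4 and 35 UMIs, too few to be called. The E16.5 value was then -0.27 (-0.59 to 0.05). Suprabasal-like cells at 0 held 706 CPM (663 to 750) at P0.

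All D cyclin differences were above 0 in dermal-like cells at the 3 stages and none was past 2-fold. Only that of Ccnd3 at E13.5 had an interval across 0 (-0.008 to 0.168). Ccnd2 had the largest of these differences, 0.33, 0.56 and 0.79, beside 0.20, 0.34 and 0.37 for Ccnd1 and 0.08, 0.17 and 0.29 for Ccnd3. In epithelial-like cells their differences lay between -0.55 and 0.24. Without suprabasal-, periderm- and IRS-like cells they lay between -0.01 and 0.55, with Ccnd1 at 0.05 in place of -0.55 and Ccnd2 at 0.29 in place of -0.29 at E13.5, and Ccnd1 at 0.13 in place of -0.15 and Ccnd2 at 0.55 in place of 0.13 at P0. Btg1 differences ranged from 0.05 to 0.53 over the 6 comparisons and Cdkn1b differences from -0.62 to 0.03. Cells at 0 were shallower, with medians of 9220 against 11711 UMIs in dermal-like and 10075 against 14935 UMIs in epithelial-like cells at E16.5.

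The share of all tested genes higher and lower past 2-fold in cells at 0 was 0.0093% and 1.52% for the dermal-like class at E13.5, 0.00834% and 1.6% at E16.5 and 0.132% and 3.14% at P0, beside 0 higher and 1 lower of the 7 members at each stage. It was 0.236% and 1.46% in epithelial-like cells at E13.5, where 0 members passed, 0.117% and 1.35% at E16.5, where 1 was lower, and 0.571% and 1.57% at P0, where 1 was higher and 1 lower. Of 52 G2/M genes, a list that holds the 2 genes of the split, 46, 50 and 51 were lower in dermal-like cells at 0 at the 3 stages. The p53 targets other than Cdkn1a had 0 past 2-fold in dermal-like cells at any stage, and in epithelial-like cells Trp53inp1 was higher at E13.5. At P0 the dissociation genes summed to 4828 CPM in dermal-like cells at 0 against 3002 CPM in the rest, and to 5361 against 3207 CPM in epithelial-like cells. Their part in these differences was not tested.

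**Figure D5:**
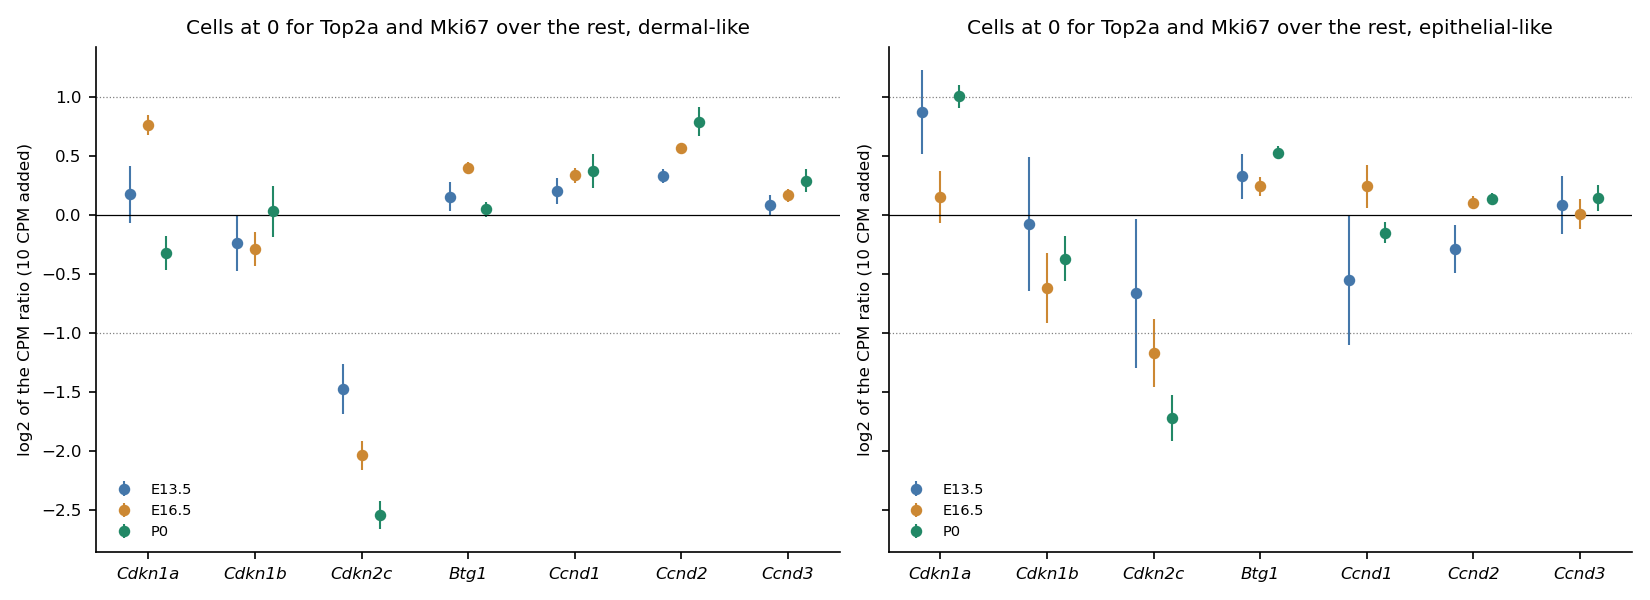
log2 of the CPM ratio (10 CPM added) of cells at 0 for Top2a and Mki67 over the rest, for each gene in dermal-like and epithelial-like cells at each stage, with 95% counting intervals and dotted lines at 2-fold. Cdkn2c is below 0 at every stage in both lineages, and Cdkn1a lies at 0.76 at E16.5 and -0.32 at P0 in dermal-like cells.

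When cells were assigned to a phase by scores of S and G2/M genes, Cdkn2c was highest in G2/M in every lineage and stage examined. In dermal-like cells it was 2.98 CPM in G1, 11.4 CPM in S and 35.9 CPM in G2/M at E13.5, 14.998, 53.4 and 152 CPM at E16.5 and 47.5, 78.1 and 421 CPM at P0. In epithelial-like cells it was 3.88, 11.7 and 18.1 CPM, 8.14, 12.6 and 33.6 CPM, and 6.97, 27.3 and 65.2 CPM. Ccnd1 was highest in S in every one of these sets, at 248 CPM in S, 209 CPM in G1 and 132 CPM in G2/M in dermal-like cells at E16.5 and 311, 139 and 243 CPM in epithelial-like cells at P0. Cdkn1a was highest in G1 in epithelial-like cells, at 177, 172 and 381 CPM from E13.5 to P0 against no more than 99.99 CPM in S or G2/M. In dermal-like cells it was so at E16.5 alone, with 167, 84.3 and 43.9 CPM, and at P0 the phases held 87.4, 83.6 and 95.8 CPM with overlapping intervals. These sets hold whole classes, and phases were not compared without DC-, DP-, suprabasal-, periderm- and IRS-like cells. Between cells at 0 and the rest, leaving those out took Cdkn1a from 1.003 to 0.20 in epithelial-like cells at P0. In dermal-like cells at E16.5 it went from 0.76 to -0.10. Phase and cell type are thus not told apart here.

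Between stages, cells at 0 were compared within a lineage. In dermal-like cells, E16.5 against E13.5 gave 137 against 16.1 CPM of Cdkn1a (2.49, 2.29 to 2.69), 456 against 144 CPM of Btg1 (1.60, 1.49 to 1.70) and 18.5 against 3.04 CPM of Cdkn2c (1.13, 0.93 to 1.33), so 3 of 7 members were higher and 0 lower past 2-fold, against 2.39% and 2.22% of 11217 genes. Without DC-like cells Cdkn1a was 37.2 against 16.1 CPM and short of 2-fold (0.85, 0.63 to 1.07). From E16.5 to P0, Ccnd2 was lower, at 217 against 567 CPM (-1.34, -1.40 to -1.28), and it was the only member past 2-fold, with 0 higher and 1 lower against 2.27% and 2.74% of 11580 genes. Ccnd1 differed by -0.84 and Cdkn2c by 0.98. Cdkn1a differed by -0.67 with all dermal-like cells and by 0.63 without DC-like and DP-like cells, at 62.8 against 37.2 CPM.

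In epithelial-like cells at 0, Ccnd2 was 1172 CPM at E16.5 against 377 CPM at E13.5 (1.61, 1.42 to 1.80), Ccnd1 92.2 against 29.1 CPM (1.39, 0.86 to 1.91) and Cdkn1a 56.8 against 134 CPM (-1.11, -1.46 to -0.76). These were 2 higher and 1 lower of 7, against 4.86% and 5.65% of 6670 genes. The Cdkn1a difference was -0.14 (-1.09 to 0.81) without suprabasal-, periderm- and IRS-like cells, where only 35 cells at E13.5 remained. At P0 against E16.5, Cdkn1a was 254 against 56.8 CPM (1.98, 1.78 to 2.19) and Ccnd1 224 against 92.2 CPM (1.20, 1.02 to 1.37), 2 higher and 0 lower against 2.87% and 2.47% of 9288 genes. Here Cdkn1a was 125 against 15.2 CPM (2.41, 2.11 to 2.72) without those cells.

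The dissociation genes moved with every one of these stage steps. In cells at 0 they summed to 449, 1981 and 4828 CPM in dermal-like and 542, 1355 and 5361 CPM in epithelial-like cells at E13.5, E16.5 and P0. Of those tested, 8 of 11 and 8 of 13 were higher past 2-fold in the dermal-like steps and 5 of 10 and 10 of 13 in the epithelial-like steps, and 0 were lower. Their part in the members' differences was not tested. The close relative Btg2, an immediate-early gene, was higher in both dermal-like steps and at P0 in epithelial-like cells, and it was named after its values were seen. The p53 targets other than Cdkn1a had 0 of 11, 0 of 10, 0 of 9 and 0 of 10 higher in the 4 steps, with Trp53inp1 lower at E16.5 in epithelial-like cells.

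The genes whose levels over the 37 groups were most like those of each member were found among 7056 genes by Pearson's r of log2 levels, as a description of groups that share libraries. For Cdkn1a they were Sgpp1 (0.67), Btg1 (0.64) and Smim5 (0.64), so another member was second on its list. For Cdkn2c they were Mfsd10 (0.78), Cdkn2d (0.77) and Rnaset2b (0.76), and for Ccnd3 Cdkn1c (0.87), Nrk (0.81) and Itm2a (0.81). Cdkn1c encodes p57, the third CDK inhibitor of the p21 family, and Cdkn2d an INK4 protein. The nearest were Alkbh5 (0.73) for Cdkn1b, Eif3h (0.72) for Btg1, Rassf1 (0.74) for Ccnd1 and Ptbp1 (0.72) for Ccnd2.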

How the data were processed

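Single-cell libraries of back skin, 1 per stage, were analysed from the expression table the authors deposited. The authors counted UMIs with Cell Ranger 2.2.0 on mm10, kept genes in 3 or more cells and cells of 1750 or more genes, and deposited the natural log of 1 plus UMIs per 10000 UMIs of the cell. All 48197283 values above 0 came back as whole UMIs within 0.001. Each library was clustered alone (scanpy 1.11.5, leidenalg 0.10.2, Python 3.11.15) with 2000 variable genes, 30 components, 15 neighbours and Leiden resolution 1, leaving the members, the pathway lists and the S and G2/M genes out of the variable genes. Clusters took the name of whichever class had the highest mean marker difference over the 25th percentile of the clusters, with at least 3 markers past a log2 difference of 1. DC-like and DP-like names needed at least 6 of 12 markers. Rules added after the clusters had been seen reclustered unnamed clusters once and removed sub-clusters led by genes of another class. They also raised the markers needed for periderm-like cells to 4, and a sub-cluster name needed 1 of its markers among the 10 leading genes. The members and lists were chosen with earlier results of these data known. Doublets called by Scrublet (0, 84 and 106 cells) were kept, and at E13.5 the caller did not work. Shares of cells were taken after thinning to 3500 UMIs, with exact binomial intervals. UMIs from amplified libraries are counted once, and intervals cover counting error only. Named genes were the members, the 3 genes most like each, and, in the pathway lists, those past 2-fold with the largest differences. The fold calculation and its interval were tested on simulated counts, drawn with counting error only and with known changes put in. Clustering, naming, the split, thinning and phase scores were not simulated. Other settings were tried for the naming, the resolution, the variable genes, the doublets, the minimum of genes, the weight of cells, the value added to CPM and the split.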

Additional observations from a re-analysis of the deposited data

Results flagged for a closer look

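Differences of 1 gene that ran in opposite directions in 2 lineages or stages are given here as values on the log2 scale. None of these contrasts of contrasts was tested, since each rests on 1 library per stage.

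For Cdkn1a, the difference between cells at 0 for Top2a and Mki67 and the rest was 0.76 in dermal-like cells at E16.5 and -0.32 at P0, a gap of 1.09, and at P0 it was -0.32 in dermal-like and 1.003 in epithelial-like cells, a gap of -1.33. Without DC-, DP-, suprabasal-, periderm- and IRS-like cells, added after the data were seen, these were -0.10, -0.63 and 0.20. The step from E13.5 to E16.5 was 2.49 in dermal-like and -1.11 in epithelial-like cells, a gap of 3.60, and that from E16.5 to P0 was -0.67 and 1.98, a gap of -2.65. Without the same cells these steps were 0.85 and -0.14, and 0.63 and 2.41, so that the second pair had 1 direction.

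For Ccnd1, cells at 0 against the rest gave 0.20 in dermal-like and -0.55 in epithelial-like cells at E13.5 (gap 0.75), 0.37 and -0.15 at P0 (gap 0.52), and, over the epithelial-like sets of the 3 stages, -0.55, 0.24 and -0.15 (gaps -0.80 and 0.39). Without the same cells these were 0.20 and 0.05 at E13.5, 0.39 and 0.13 at P0 and 0.30 in epithelial-like cells at E16.5, with no opposite directions. The step from E16.5 to P0 was -0.84 in dermal-like and 1.20 in epithelial-like cells (gap -2.03), and without those cells -0.61 and 1.41. For Ccnd2, cells at 0 against the rest gave 0.33 in dermal-like and -0.29 in epithelial-like cells at E13.5 (gap 0.62), and 0.10 and 0.13 in epithelial-like cells at E16.5 and P0 (gaps -0.40 and -0.43 from E13.5). Without the same cells these were 0.33 in dermal-like and 0.29, 0.14 and 0.55 in epithelial-like cells, all above 0. The step from E13.5 to E16.5 was -0.45 in dermal-like and 1.61 in epithelial-like cells for Ccnd2 (gap -2.06) and 0.14 and -0.34 for Ccnd3 (gap 0.48), and without the same cells -0.44 and 1.14, and 0.19 and -0.20.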

How the results depend on the processing

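Results were computed again under 15 other settings, each for the results it can change, which gave 11 to 14 alternatives for a value past 2-fold. Of 188 values of the members' counts past 2-fold, 160 stayed within 1.5 times the count given and 28 did not. Of 2795 single values, 1845 were marked as the same, 946 as moved without a reversal and 4 as reversed. A reversal is counted only for a value past 2-fold, and values short of it also changed sign, as with Cdkn1a, Ccnd1 and Ccnd2 without DC-, DP-, suprabasal-, periderm- and IRS-like cells. Taking classes from the marker UMIs of each cell left 1 member past 2-fold in each DC-like and DP-like comparison, turned Cdkn2c to 0.28 in DC-like and 0.59 in DP-like cells and Ccnd2 to 0.29 in DP-like cells at 0, and gave 2 members in epithelial-like cells at 0 against the rest at E13.5 and 1 at P0. Naming without the added rules turned Cdkn2c to 2.34 in DP-like cells and gave 1 member in that comparison, 1 in epithelial-like cells at 0 against the rest at P0 and 4 in the dermal-like step from E16.5 to P0. For that step the count was 3 at resolution 0.5 and with cells of at least 2500 genes, and 2 with all genes allowed as variable genes, with each cell weighted equally, with 1 added to each CPM and with the split on phase scores. Resolution 0.5 gave 1 member in epithelial-like cells at 0 against the rest at E13.5 and 1 at P0, and the median of the clusters as naming reference gave 1 in DP-like cells at 0. With at least 2500 genes the counts were 2 in epithelial-like cells at 0 against the rest at E13.5 and 1 in their step from E16.5 to P0. Splitting thinned cells gave 2 in epithelial-like cells at 0 against the rest at E16.5, 1 at P0 and 1 in their step from E13.5 to E16.5. Splitting on phase scores gave 2 in dermal-like cells at E16.5, 1 in epithelial-like cells at E13.5 and 1 in the epithelial-like step from E13.5 to E16.5. Without DC-, DP-, suprabasal-, periderm- and IRS-like cells, added after the data were seen, 1 member remained past 2-fold in epithelial-like cells at 0 against the rest at P0 and 1 in their step from E13.5 to E16.5. The cause of these shifts was not tested. Cdkn1a in DC-like cells lay between 2.53 and 3.66 and was past 2-fold in all 11 alternatives, in DP-like cells between 0.83 and 2.196 and in 9 of 11. Cdkn2c in dermal-like cells at 0 against the rest was past 2-fold in all 14 alternatives at each stage, and Cdkn1a in epithelial-like cells at P0 in 9 of 14. No paired analysis was possible because there was 1 library per stage. Groups of few cells limit low genes, as with the 3 Cdkn1a UMIs of the 51 myogenic progenitor-like cells.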

Other observations

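The muscle-like cells at E13.5 differed widely in Cdkn1a within 1 library. Cdkn1a was 4.18 CPM (0.861 to 12.2) in 51 myogenic progenitor-like cells, 84.7 CPM (75.5 to 94.7) in 353 other muscle-like cells and 815 CPM (759 to 875) in 57 myocyte-like cells, and these intervals did not overlap. Cdkn1b was 8.35, 26.5 and 8.35 CPM and Cdkn2c 8.35, 13.2 and 3.13 CPM. Btg1 was 80.8 CPM (61.3 to 104), 164 CPM (151 to 178) and 448 CPM (407 to 492). Ccnd2 was 160 CPM (132 to 192), 309 CPM (291 to 328) and 72.0 CPM (56.1 to 91.2), whereas Ccnd3 stayed between 612 and 647 CPM. After thinning, 33.3%, 37.1% and 71.9% of these cells were at 0 for Top2a and Mki67.

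In endothelial-like cells Ccnd1 made up 26.9% (25.3 to 28.6) of D cyclin UMIs at E13.5, 55.4% (54.0 to 56.8) at E16.5 and 47.3% (45.0 to 49.7) at P0, and Ccnd2 47.9%, 21.1% and 25.6%. In immune-like cells Cdkn1a was 31.5 CPM (26.5 to 37.2), 161 CPM (146 to 179) and 172 CPM (142 to 206) at the 3 stages.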
